A study of Arabidopsis thaliana with 12 samples.

Results

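Aminoacyl-tRNA synthetases are the enzymes that join each amino acid to its transfer RNA. Of 45 Arabidopsis loci named as such enzymes, 19 had a probe set that the platform annotation gives to that locus alone, and these 19 genes were measured. Each had 1 such probe set, out of 22746 probe sets tested and 13333 genes with a probe set of their own. By textbook assignment, 17 of the 26 genes for enzymes of the cytosol and 2 of the 19 for enzymes of plastids and mitochondria were measured. The cytosolic genes covered 14 of the 20 amino acids, and those for lysine, valine, asparagine, glutamine, glycine and tyrosine were not analysed here.

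The 26 loci without a probe set of their own were AT2G04842, AT3G11710, AT3G13490, AT4G31180, AT4G04350, AT5G49030, AT1G14610, AT5G16715, AT5G22800, AT4G26300, AT5G56680, AT4G17300, AT1G70980, AT2G31170, AT1G25350, AT5G64050, AT1G29880, AT3G48110, AT3G46100, AT3G55400, AT5G52520, AT1G11870, AT2G25840, AT2G33840, AT1G28350 and AT3G02660.

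Transcripts were measured on 12 Affymetrix ATH1 arrays of whole excised seeds of the Wassilewskija (WS) accession, grown in soil in a greenhouse at 23 °C. Seeds of a wild type (WT) and of a genotype labelled KD were taken when flowers were 14 or 16 days old (14DAF or 16DAF) and as mature dry seeds, with 2 arrays for each of the 6 groups. The series concerns altered lysine metabolism and cites Zhu and Galili, who combined loss of the lysine-degrading enzyme LKR/SDH with a feedback-insensitive bacterial enzyme of lysine synthesis expressed in seeds. The labels do not spell out KD or say which of these changes its seeds carried, and nothing says that the 2 repeats came from separate plants, so a p-value here reflects the spread of these arrays, possibly a technical one.

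Every cell needs transfer RNA joined to each amino acid, and plants use synthetases for this in the cytosol, in plastids and in mitochondria. All are encoded in the nucleus, and many proteins serve more than 1 of these places. The enzymes fall into class I and class II, which have unrelated catalytic folds. Loss of a single organellar enzyme often stops embryo or ovule development in Arabidopsis. Uncharged transfer RNA, which builds up when an amino acid or its synthetase runs short, activates the kinase GCN2, which phosphorylates the initiation factor eIF2. Threonine, methionine, isoleucine and lysine are all made from aspartate in plants.

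The 2 arrays of a group correlated at 0.983 to 0.993 over all probe sets, and 12 of 12 arrays correlated best with their own replicate. LKR/SDH (AT4G33150) lay between 8.87 and 10.61 (log2 signal) in WT and between 12.8 and 13.88 in KD. The signal was thus higher in KD on every array, although the cited work describes a loss of this enzyme. The source of this difference was not tested. The source names of WT 16DAF replicate 1 and of KD dry replicate 1 carry the opposite genotype to their titles. On these arrays LKR/SDH stood at 9.8 and 12.83, each inside the range of the other arrays of the titled genotype. The titles were followed, and counts without both arrays are given beside the results. Leaving them out also leaves a single array in each of their groups. Of the markers of seed identity 4 of 13 were measured: OLEO3 (oil bodies), ICL (isocitrate lyase), M17 and M10. OLEO3 lay between 12.99 and 13.74 before drying and between 9.75 and 11.01 in dry seeds, and ICL between 10.79 and 13.33 on all arrays. M17 lay between 2.9 and 7.43 before drying and between 12.91 and 14.03 after. M10 lay between 4.7 and 6.43 at 14DAF and between 13.93 and 14.37 in dry seeds; at 16DAF it was 7.25 and 10.46 in WT and 7.29 and 10.56 in KD, low in replicate 1 and high in replicate 2 of both genotypes. The part of this gap in the 16DAF results was not tested. Of markers of other tissues, 3 of 7 for the seed coat, 1 of 6 for the silique wall and funiculus and 0 of 4 for the endosperm were measured.

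The largest difference between the genotypes belonged to AT1G17960, a threonyl-tRNA synthetase gene. In WT its log2 signal was 6.0 and 6.34 at 14DAF, 5.13 and 5.37 at 16DAF, and 4.49 and 5.27 in dry seeds. In KD it was 8.22 and 7.55 at 14DAF, 9.02 and 10.18 at 16DAF, and 7.83 and 8.31 in dry seeds. The lowest KD array thus lay above the highest WT array, across all stages.

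At 16DAF AT1G17960 was 20.4-fold higher in KD (log2 difference 4.35, SE 0.39, adjusted p = 0.000277 by limma with Benjamini-Hochberg adjustment over all probe sets), the largest positive difference of the 22746 probe sets at that stage. It was 9.13-fold higher in dry seeds (3.19, SE 0.39, adjusted p = 0.00112), where it ranked 22 from the top. At 14DAF it was 3.28-fold higher (1.72, SE 0.39, adjusted p = 0.027), and that call was lost when any 1 of the 4 arrays compared was left out. In WT the gene stood near the array median, at 5.13 and 5.37 against medians of 5.11 and 5.2 at 16DAF and, in dry seeds, at 4.49 and 5.27 against 4.93 and 4.97. The folds at both stages, and the rank at 16DAF, therefore rest on dim WT signals and have an uncertain size.

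The second threonyl-tRNA synthetase gene of the cytosol, AT5G26830, showed nothing of this size. Its log2 signal was 9.08 and 9.31, 8.94 and 9.26, and 8.99 and 9.24 in WT at 14DAF, 16DAF and the dry stage, and 9.62 and 9.51, 9.22 and 9.72, and 9.55 and 9.35 in KD. The arrays of the genotypes overlapped at 16DAF. No single stage passed the threshold for this gene.

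**Figure D1:**
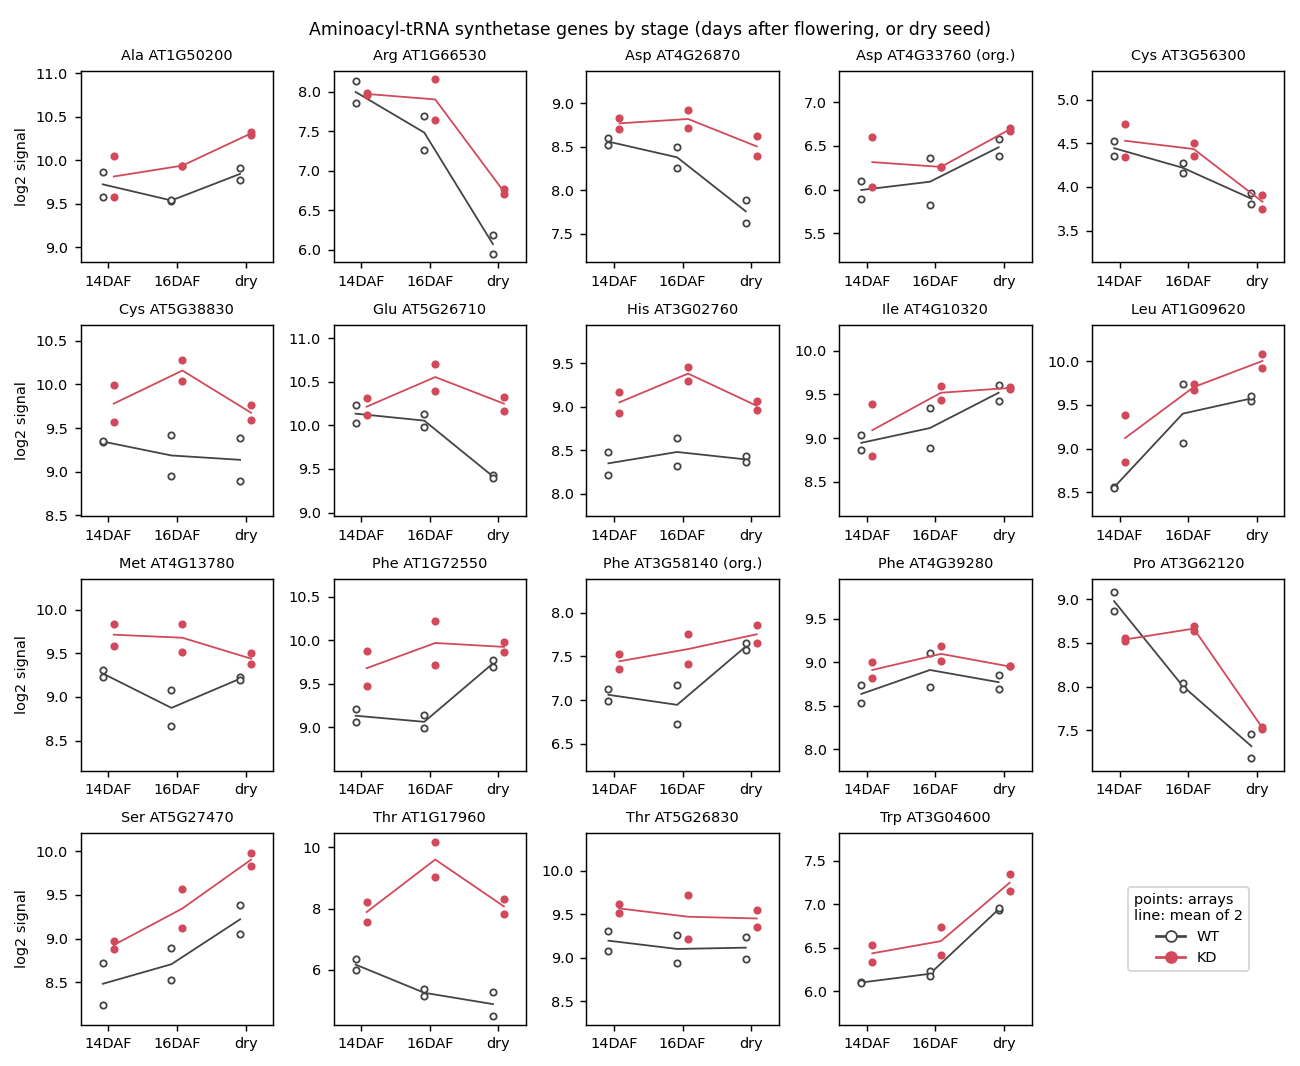
Log2 signal (y axis) of the 19 measured synthetase genes at 14DAF, 16DAF and the dry stage (x axis), with open points for WT arrays, filled points for KD arrays and lines through the means of 2 arrays; "org." marks the enzymes of the organelles, and the y axes differ between panels. In AT1G17960 the WT arrays run from 4.49 to 6.34 and the KD arrays from 7.55 to 10.18.

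Histidyl-tRNA synthetase, encoded by AT3G02760, was the other gene higher in KD at every stage tested. Its log2 signal in WT was 8.22 and 8.48 at 14DAF, 8.32 and 8.64 at 16DAF, and 8.43 and 8.36 in dry seeds. In KD it was 9.17 and 8.93, 9.30 and 9.46, and 9.06 and 8.96. The 6 KD arrays all lay above the 6 WT arrays. The log2 difference was 0.70 at 14DAF (SE 0.16, adjusted p = 0.0276), 0.90 at 16DAF (SE 0.16, adjusted p = 0.00576) and 0.62 in dry seeds (SE 0.16, adjusted p = 0.0417), all by limma. The dry-seed call was lost under 9 alternatives, the replicate block and the variance trend among them, the 16DAF call under 3 and the 14DAF call under 5, with only the arrays compared among both.

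Cysteinyl- and methionyl-tRNA synthetase, a pair of class I enzymes, also had every KD array above every WT array. The cysteinyl gene AT5G38830 gave 9.34 and 9.35, 8.95 and 9.42, and 9.38 and 8.89 in WT at the successive stages, and 9.57 and 9.99, 10.04 and 10.28, and 9.76 and 9.59 in KD. The methionyl gene AT4G13780 gave 9.23 and 9.31, 8.67 and 9.08, and 9.23 and 9.19 in WT, and 9.84 and 9.59, 9.52 and 9.84, and 9.38 and 9.5 in KD. Both passed the threshold at 16DAF, by 0.98 (SE 0.22, adjusted p = 0.0179) and 0.81 (SE 0.17, adjusted p = 0.0145) on the log2 scale. Each of these calls was lost under 4 alternatives. Among them were the fit with only the arrays compared and the fit without both arrays of conflicting source names. The second cysteinyl gene, AT3G56300, lay below the array median on 12 of 12 arrays, and its KD minus WT differences ranged from -0.04 to 0.22.

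Cytosolic phenylalanyl-tRNA synthetase is built from alpha and beta subunits, and their genes gave different values. The beta subunit gene AT1G72550 stood at 9.06 and 9.21, 8.99 and 9.14, and 9.78 and 9.69 in WT, and at 9.48 and 9.88, 9.72 and 10.22, and 9.98 and 9.87 in KD. It was higher in KD at 16DAF by 0.91 (SE 0.19, adjusted p = 0.0128). That call was lost under 4 alternatives, with only the arrays compared and without both arrays of conflicting source names among them. The alpha subunit gene AT4G39280 stood at 8.53 and 8.74, 9.10 and 8.72, and 8.69 and 8.85 in WT, and at 8.82 and 9.0, 9.01 and 9.18, and 8.95 and 8.95 in KD. Its arrays overlapped between the genotypes at 16DAF, and it passed the threshold in none of the contrasts run. The difference between the subunits was not tested.

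Glutamyl- and aspartyl-tRNA synthetase differed most between the genotypes in dry seeds. The glutamyl gene AT5G26710 gave 10.03 and 10.24, 9.98 and 10.13, and 9.43 and 9.40 in WT, and 10.31 and 10.12, 10.40 and 10.71, and 10.17 and 10.33 in KD. The aspartyl gene AT4G26870 gave 8.52 and 8.60, 8.50 and 8.26, and 7.63 and 7.89 in WT, and 8.83 and 8.71, 8.72 and 8.92, and 8.39 and 8.62 in KD. In dry seeds KD was above WT by 0.84 for the glutamyl gene (SE 0.15, adjusted p = 0.00863) and by 0.75 for the aspartyl gene (SE 0.15, adjusted p = 0.0163). Each of these calls was lost under 2 alternatives that left out a single dry-seed array.

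Seryl- and tryptophanyl-tRNA synthetase had the KD arrays above the WT arrays at each stage but passed no single-stage test. The seryl gene AT5G27470 gave 8.24 and 8.72, 8.52 and 8.89, and 9.39 and 9.05 in WT, and 8.88 and 8.97, 9.12 and 9.57, and 9.98 and 9.83 in KD. Its largest difference was 0.69 in dry seeds (adjusted p = 0.091). The tryptophanyl gene AT3G04600 gave 6.11 and 6.09, 6.23 and 6.17, and 6.93 and 6.95 in WT, and 6.34 and 6.53, 6.41 and 6.74, and 7.15 and 7.34 in KD.

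The prolyl gene AT3G62120 was higher in KD at 16DAF, and its KD minus WT difference was negative at 14DAF. It gave 8.87 and 9.09, 8.04 and 7.97, and 7.45 and 7.18 in WT, and 8.52 and 8.56, 8.69 and 8.64, and 7.51 and 7.54 in KD. At 14DAF the WT arrays lay above the KD arrays without passing the threshold (-0.44, adjusted p = 0.0849). At 16DAF KD was higher by 0.66 (SE 0.14, adjusted p = 0.0122). The 16DAF call was lost under 4 alternatives, with only the arrays compared and without both arrays of conflicting source names among them. Differences just below 0 also occurred for the arginyl gene AT1G66530 at 14DAF (-0.03, adjusted p = 0.965) and for AT3G56300 in dry seeds (-0.04, adjusted p = 0.95).

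Of the organellar enzymes, the phenylalanyl gene AT3G58140 gave 7.13 and 6.99, 6.72 and 7.17, and 7.58 and 7.65 in WT, and 7.36 and 7.53, 7.41 and 7.76, and 7.86 and 7.65 in KD. It was higher in KD at 16DAF by 0.64 (SE 0.18, adjusted p = 0.0487), a call that was lost under 15 of the alternatives. The organellar aspartyl gene AT4G33760 stayed between 5.82 and 6.71 on all arrays and passed the threshold in none of the contrasts run, and neither did the isoleucyl gene AT4G10320, which lay between 8.79 and 9.61. The leucyl gene AT1G09620, the alanyl gene AT1G50200 (ALATS) and the arginyl gene AT1G66530 passed no single-stage test between the genotypes.

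Counted over the 19 genes, KD was higher for 2 at 14DAF, where 3.35% of all probe sets were called higher and 7.27% in either direction. At 16DAF it was higher for 7, against 5.22% of all probe sets called higher and 11.1% in either direction. In dry seeds it was higher for 4, against 4.01% and 7.91%. The shares of all probe sets called lower were 3.92%, 5.88% and 3.9%, and 0 of the 19 genes were called lower in KD at any stage. The sign of the difference was positive for 17, 19 and 18 of the 19 genes at 14DAF, 16DAF and the dry stage, against 51.4%, 46.3% and 47.4% of all probe sets. The median log2 difference was 0.34, 0.44 and 0.34, against 0.01, -0.03 and -0.02 over all probe sets.

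These single-stage counts depended on single arrays. At 16DAF the count of 7 fell to 3 without WT 16DAF replicate 1, to 1 without KD 16DAF replicate 2 and to 1 without both arrays of conflicting source names, AT1G17960 being called each time. In dry seeds the count of 4 became 2 without either WT dry array, 1 without KD dry replicate 2 and 3 without the conflicting arrays. At 14DAF it was 0 when any 1 of the 4 arrays was left out.

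**Figure D2:**
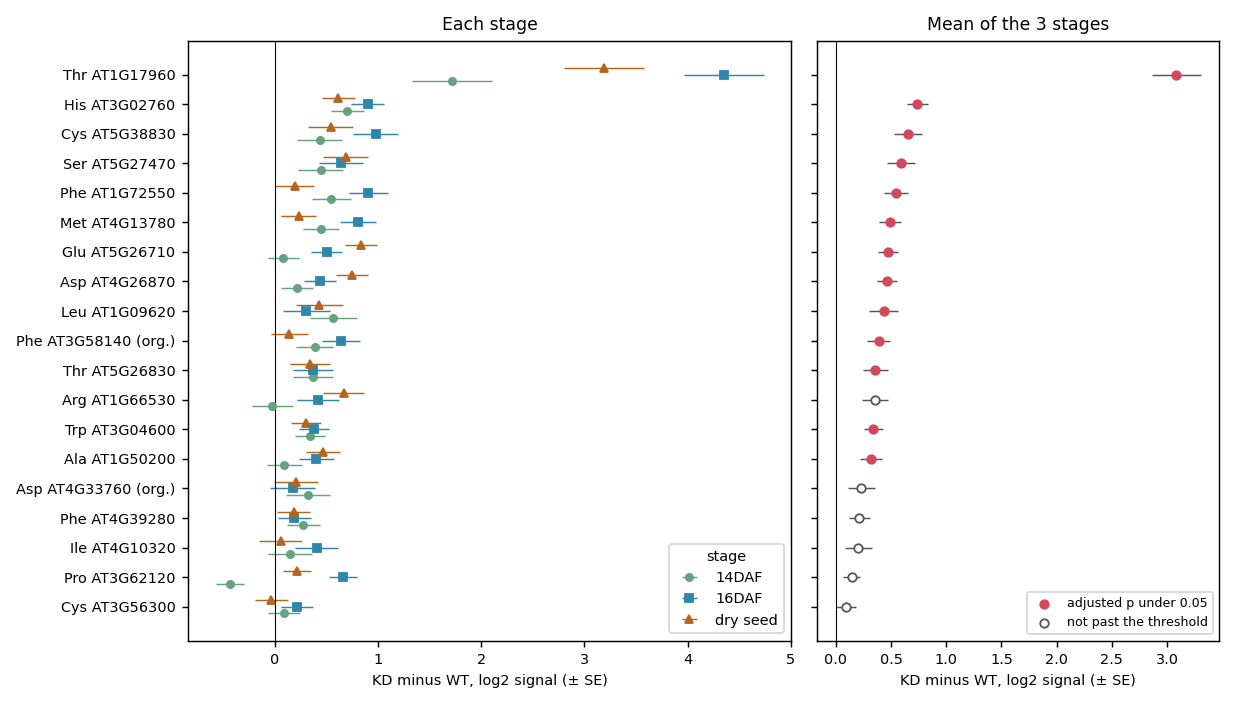
KD minus WT difference in log2 signal (x axis, ± SE of the model) for the 19 genes (y axis), at each stage on the left and as the mean of the 3 stages on the right, where filled points passed an adjusted p of 0.05. AT1G17960 stands at 1.72, 4.35 and 3.19, and the means of the other genes run from 0.09 to 0.74.

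The mean of the 3 stage differences was added as a contrast after the data had been seen. In it, 13 of the 19 genes were higher in KD and 0 lower, against 8.72% of all probe sets called higher, 11.5% called lower and 20.2% in either direction. All 19 differences were positive, against 48.1% of all probe sets, and their median was 0.39 against -0.01. These background shares include dim probe sets, since only 48.9% to 52.9% of probe sets per array lay above log2 5. The synthetase genes apart from AT3G56300 had means above log2 5, and shares among brighter probe sets alone are not given here. Of the class I genes 5 of 8 passed, and of the class II genes 8 of 11; of the cytosolic genes 12 of 17 passed, and of the organellar genes 1 of 2. The count was 10 without the arrays of conflicting source names and 9 to 12 when single arrays were left out.

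After AT1G17960 (3.09, SE 0.22, adjusted p = 2.35e-05) the averaged difference was largest for the histidyl gene AT3G02760 (0.74, SE 0.09, adjusted p = 0.000386). It was 0.65 for the cysteinyl gene AT5G38830 (SE 0.13, adjusted p = 0.00486), 0.59 for the seryl gene AT5G27470 (SE 0.13, adjusted p = 0.00787) and 0.55 for the phenylalanyl beta gene AT1G72550 (SE 0.11, adjusted p = 0.00551). The methionyl gene AT4G13780 (0.49), the glutamyl gene AT5G26710 (0.47) and the aspartyl gene AT4G26870 (0.47) followed. These 8 genes passed under each of the alternatives run for this contrast. The leucyl gene AT1G09620 (0.43), the organellar phenylalanyl gene AT3G58140 (0.39), the threonyl gene AT5G26830 (0.36), the tryptophanyl gene AT3G04600 (0.34) and the alanyl gene AT1G50200 (0.32) passed in the full data but not under all alternatives.

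The 6 genes that did not pass were the arginyl gene AT1G66530 (0.35, adjusted p = 0.0585), the organellar aspartyl gene AT4G33760 (0.23), the phenylalanyl alpha gene AT4G39280 (0.21), the isoleucyl gene AT4G10320 (0.20), the prolyl gene AT3G62120 (0.14) and the dim cysteinyl gene AT3G56300 (0.09).

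The same arrays were also compared without a model, so the counts that follow are not independent of the differences above. Both KD arrays lay above both WT arrays for 12 of the 19 genes at 14DAF, for 14 at 16DAF and for 16 in the dry seed, against 24.9%, 21.5% and 23.7% of all probe sets. At every stage this held for 8 genes, against 5.15% of all probe sets: AT1G17960, AT4G26870, AT5G38830, AT3G02760, AT4G13780, AT1G72550, AT5G27470 and AT3G04600. For 4 of them, AT1G17960, AT5G38830, AT3G02760 and AT4G13780, the 6 KD arrays lay above the 6 WT arrays regardless of stage, against 1.29% of all probe sets. The reverse order occurred for 1 gene at 14DAF, the prolyl gene, and for 0 at the later stages, against 25%, 26.7% and 26.4% of all probe sets at 14DAF, 16DAF and in the dry seed.

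**Figure D3:**
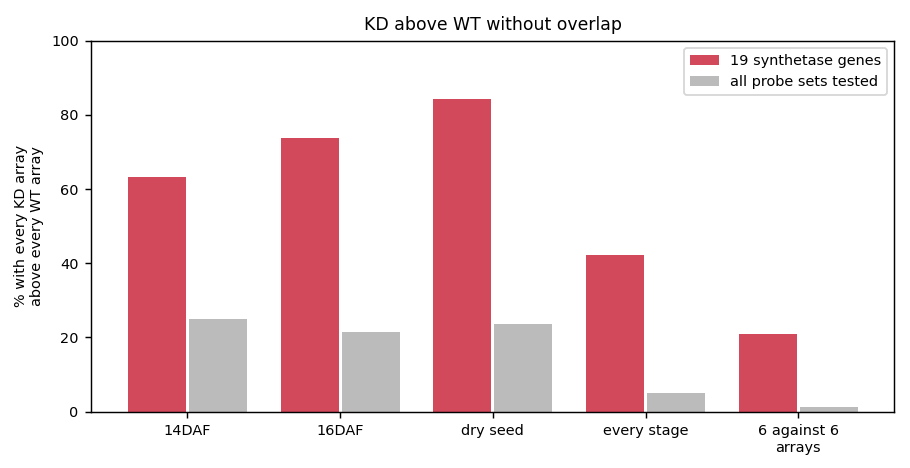
Percent (y axis) of the 19 synthetase genes and of all 22746 probe sets tested for which each KD array lay above each WT array, at single stages, at every stage and over 6 against 6 arrays (x axis). The share of the synthetase genes is 63.2%, 73.7% and 84.2% at the single stages and 42.1% at every stage.

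Measures of RNA quality and of other tissues moved between the genotypes as follows, and their part in these differences was not tested. The 3′ minus 5′ log2 signal of 3 pairs of control probe sets was 4.11 ± 0.08, 3.90 ± 0.50 and 3.35 ± 0.13 (SD, n = 2) in WT at the successive stages, and 3.85 ± 0.37, 3.57 ± 0.25 and 3.40 ± 0.10 in KD. Of 3 seed coat genes, DELTA-VPE, a vacuolar processing enzyme, was higher in KD at 16DAF (1.86, SE 0.46, adjusted p = 0.0267), and 0 of 3 differed in the mean of the stages. The other seed coat genes, BAN and DFR, differed at 16DAF by 0.095 and -0.05 and did not pass. DELTA-VPE also changed with stage, by -4.04 in WT and -2.27 in KD from 14DAF to 16DAF (adjusted p = 0.000245 and 0.0143 by limma). Whether its 16DAF difference reflects tissue content or seed stage was not tested. ALC, the measured silique wall gene, was below the array median on 12 of 12 arrays and lower in KD at 16DAF by -0.44 (SE 0.11, adjusted p = 0.036) and in the mean of the stages by -0.25 (SE 0.07, adjusted p = 0.0221). RNA from whole seeds cannot tell fewer cells of a type from less RNA per cell.

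Between 14DAF and 16DAF 1 of the 19 synthetase genes rose in WT seeds and 1 fell. The prolyl gene AT3G62120 fell by 0.98 (SE 0.14, adjusted p = 0.000824), with both 16DAF arrays below both 14DAF arrays. The leucyl gene AT1G09620, at 8.56 and 8.55 at 14DAF and 9.74 and 9.06 at 16DAF, rose by 0.85 (SE 0.23, adjusted p = 0.0248). Over all probe sets the shares were 9.2% higher and 10.3% lower, together 19.5%. The other 17 genes did not pass, and their values ran from -0.92 for AT1G17960 (adjusted p = 0.136) to 0.28. The leucyl call was lost without either 14DAF array, and without WT 16DAF replicate 1 (a conflicting array), leaving 1 call.

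From 16DAF to the dry seed 3 of the 19 genes rose in WT and 4 fell, against 20.4% and 16.9% of all probe sets, 37.3% in all. The arginyl gene AT1G66530, at 7.27 and 7.70 at 16DAF and 6.19 and 5.95 in dry seeds, fell by 1.42 (SE 0.20, adjusted p = 0.000307). The prolyl gene fell by 0.69 (SE 0.14, adjusted p = 0.00238), the glutamyl gene AT5G26710 by 0.64 (SE 0.15, adjusted p = 0.00708) and the aspartyl gene AT4G26870 by 0.62 (SE 0.15, adjusted p = 0.00914).

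The tryptophanyl gene AT3G04600 rose by 0.74 (SE 0.15, adjusted p = 0.00235) in the same interval. The beta subunit gene AT1G72550 and the organellar phenylalanyl gene AT3G58140 rose by 0.67 each (adjusted p = 0.0171 and 0.0142). Centring each array on its median raised all log2 differences of this contrast by 0.21, and 7 genes then rose and 3 fell. The count was 4 without WT 16DAF replicate 1, without WT dry replicate 1 or without both conflicting arrays; the arginyl, prolyl, glutamyl and tryptophanyl calls remained under each alternative.

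In KD 1 of the 19 genes passed between 14DAF and 16DAF, upwards, against 4.63% of all probe sets called higher, 4.86% called lower and 9.5% in all. AT1G17960 rose by 1.72 (SE 0.39, adjusted p = 0.0229). Without KD 14DAF replicate 1, KD 14DAF replicate 2 or KD 16DAF replicate 2 the value was 2.05, 1.38 or 1.14 (adjusted p = 0.0605, 0.125 and 0.154). The other 18 ran from -0.10 to 0.59, the highest being the leucyl gene AT1G09620 at 8.85 and 9.39 and then 9.67 and 9.74 (adjusted p = 0.144).

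From 16DAF to the dry seed 1 gene rose in KD and 4 fell, against 19.6% and 15.3% of all probe sets, 34.9% in all. AT1G17960 fell by 1.53 (SE 0.39, adjusted p = 0.0106), and its dry level stayed above each WT array. The arginyl gene AT1G66530, at 7.65 and 8.16 and then 6.70 and 6.77, fell by 1.17 (SE 0.20, adjusted p = 0.00111), and the prolyl gene AT3G62120 fell by 1.14 (SE 0.14, adjusted p = 9.4e-05).

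The dim cysteinyl gene AT3G56300 fell by 0.61 (SE 0.16, adjusted p = 0.0119), near the bottom of the signal range, and the tryptophanyl gene AT3G04600 rose by 0.67 (SE 0.15, adjusted p = 0.00451). After centring, which raised all log2 differences of this contrast by 0.18, 3 genes rose and 3 fell. Quantile normalization moved the balance the other way, with more falls than the main model, as given in the closing section. The count of 5 was 3 without the first KD array of either stage or without both conflicting arrays. The fall of AT1G17960 was 1.29 (adjusted p = 0.084) without KD dry replicate 1 and 0.95 (adjusted p = 0.0897) without KD 16DAF replicate 2. The steps into and out of 16DAF share the 16DAF arrays, so their values are not independent.

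**Figure D4:**
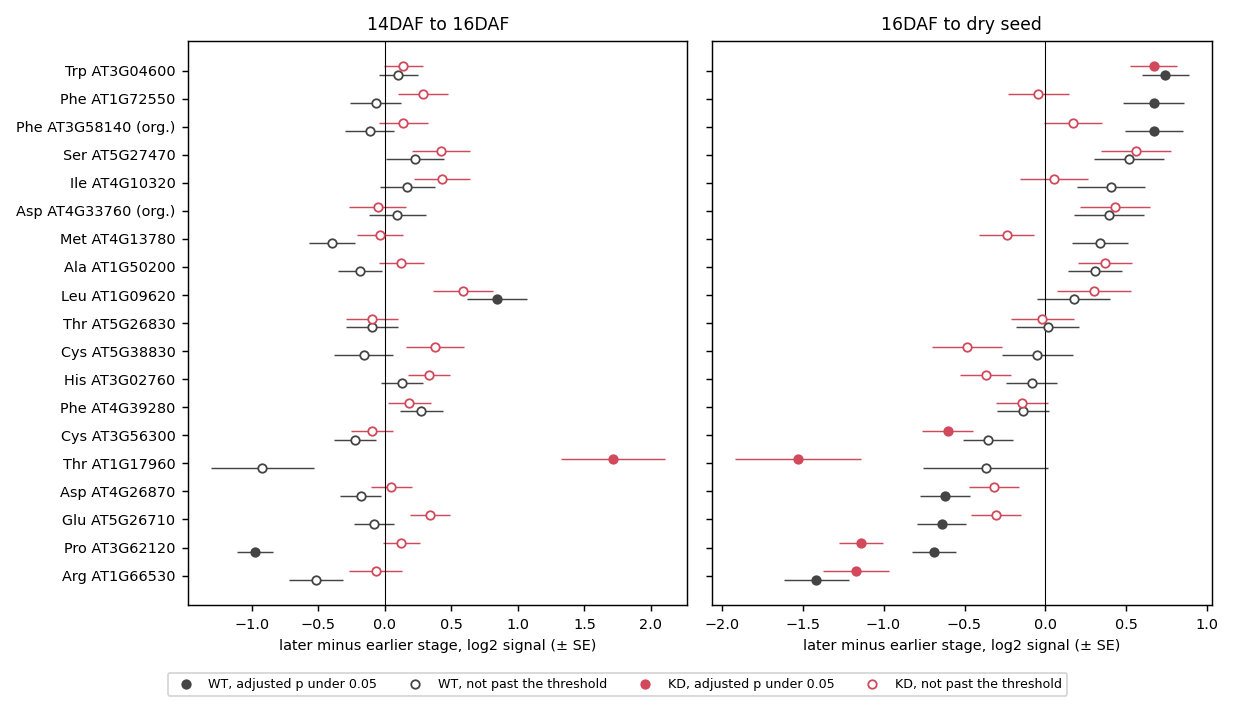
Change in log2 signal between successive stages (x axis, ± SE of the model) for the 19 genes (y axis), from 14DAF to 16DAF on the left and from 16DAF to the dry seed on the right, with WT in grey and KD in red and filled points where the adjusted p was under 0.05. The arginyl and prolyl genes stand furthest left among WT on the right, at -1.42 and -0.69.

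Whether a stage step differed between the genotypes was tested directly. For the step from 14DAF to 16DAF, limma called 0 of 19 genes, against 0.356% of all probe sets (0.202% positive and 0.154% negative), and 2 had an unadjusted p under 0.05, as did 13.7% of all probe sets. These were the prolyl gene AT3G62120 (1.1, SE 0.19, adjusted p = 0.0503), which fell in WT and had a KD step of 0.13, and AT1G17960 (2.64, SE 0.55, adjusted p = 0.0798). The prolyl gene passed without WT 14DAF replicate 1 (1.21, adjusted p = 0.0296), and its adjusted p lay between that and 0.2 over the alternatives. For the step to the dry seed limma called 0 of 19, against 1.38% of all probe sets (0.765% positive and 0.611% negative), with a lowest adjusted p of 0.261. Of the 19 genes 3 had an unadjusted p under 0.05, as did 13.7% of all probe sets, so neither count stands out from the background.

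Replicates of the synthetase genes differed by a median of 0.15 to 0.32 log2 units, depending on the group. The widest gap was 1.16, for AT1G17960 in KD at 16DAF, and it was smaller than the difference of 4.35 from WT there. In KD at 16DAF replicate 1 was the lower array for 15 of the 19 genes, in WT at 16DAF for 13 and in WT at 14DAF for 15.

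Other components of translation were read from lists of loci. Of the elongation factors of the cytosol 2 of 12 were measured, both for the alpha subunit of eEF1B, which recharges the factor that delivers aminoacyl-tRNA. In the averaged contrast AT5G19510 was higher in KD by 0.92 (SE 0.11, adjusted p = 0.000374), and AT5G12110 did not pass. Of the organellar factors 3 of 8 were measured. The elongation factor Tu gene AT4G02930 was higher in KD by 0.94 (SE 0.10, adjusted p = 0.000157), and the initiation factor gene FUG1 was lower, by -0.46 (SE 0.13, adjusted p = 0.029).

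Genes that mature or handle transfer RNA, of which 10 of 16 were measured, gave 1 higher and 4 lower in KD in the averaged contrast, against 8.72% and 11.5% of all probe sets, with a median of -0.15 against -0.01. TRZ4, which trims the 3′ end of transfer RNA precursors, was lower by -0.78 (SE 0.11, adjusted p = 0.000864). The gene AT3G25660 for subunit A of the organellar amidotransferase that makes glutaminyl-tRNA was lower by -0.55 (SE 0.07, adjusted p = 0.000451). GEK1, a deacylase that removes D-amino acids from transfer RNA, was higher by 0.46 (SE 0.10, adjusted p = 0.0103). The difference between these genes and the synthetases was not tested.

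Of the GCN2 and eIF2 genes 2 of 6 were measured, and neither passed the threshold in any contrast run. The gene for GCN2 itself was not among them. Their KD minus WT differences were positive at each stage, from 0.215 to 0.405. ILA, the GCN1 homologue, had an averaged difference of 0.34 (adjusted p = 0.148 by limma), and AT2G40290, for eIF2 alpha, one of 0.26 (adjusted p = 0.165).

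On drying the transfer RNA nucleotidyltransferase gene AT1G22660, whose product adds the CCA end to which amino acids are joined, rose by 1.02 in WT (SE 0.13, adjusted p = 0.000118) and by 1.52 in KD (SE 0.13, adjusted p = 8.78e-06). At 16DAF it was lower in KD by -0.71 (SE 0.13, adjusted p = 0.00596). The eEF1B alpha gene AT5G12110 fell on drying by 0.78 in WT (SE 0.20, adjusted p = 0.0119) and by 1.52 in KD (SE 0.20, adjusted p = 0.000206). For neither gene did the step to the dry seed differ between the genotypes past the threshold. The limma interaction was 0.5 for AT1G22660 (adjusted p = 0.241) and -0.74 for AT5G12110 (adjusted p = 0.282).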

How the data were processed

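Seed RNA was labelled by a 2-cycle amplification for ATH1 arrays, per the labels' protocols. The range of the deposited values is that of log2 signal; RMA and Partek were the authors' tools, per the submitters' processing notes. Their versions and the set of arrays normalized as 1 batch are not given in the sources. RMA aligns the arrays' distributions, so a shift of all transcripts would be hidden. Without detection calls, folds of dim genes have an uncertain size, and 12 arrays limit the precision.

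Of 22810 probe sets, 64 controls were removed. Groups came from the sample titles. The title of WT dry replicate 1 names the accession WS in place of WT, and this array was taken as WT. Its LKR/SDH signal of 8.87 lay below that of every KD array. The model of group means over all 12 arrays used limma 3.58.1 (R 4.3.3) with eBayes, no trend, 6 residual degrees of freedom and 4.16 prior ones. P-values, two-sided, were adjusted by Benjamini-Hochberg over 22746 probe sets per contrast, with a threshold of 0.05. Errors beside differences are model SEs. The code was tested on simulated data.

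The synthetase loci, the companion lists and the contrasts were chosen with earlier results of these data known. Each measured locus is named at least once; up to 10 per direction and contrast were given in full where the arrays did not overlap, and up to 4 per companion list. Alternatives were a replicate block, only the arrays compared, centring, quantile normalization, a variance trend, a floor of log2 5 and leaving out arrays. Gene names come from GEO's platform annotation and the TAIR10.1 gene table; no sequences were used. Python 3.11.15 with pandas 2.3.3 and matplotlib 3.10.9 served for tables and plots.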

Additional observations from a re-analysis of the deposited data

How the results depend on the processing

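Of the 41 calls on synthetase genes, 17 held under each alternative run, 24 were lost under at least 1, and 0 changed direction. Without both arrays of conflicting source names, 1 gene was called for the WT step from 14DAF to 16DAF, 4 for the WT step to the dry seed, 3 for the KD step to the dry seed and 1 for KD minus WT at 16DAF. With only the arrays of the contrast, the counts were 8 for the KD step to the dry seed, 1 for KD minus WT at 14DAF and 1 at 16DAF. Quantile normalization gave 9 for the KD step to the dry seed, 1 higher and 8 lower. Centring gave 7 higher and 3 lower for the WT step to the dry seed, against 3 and 4, and 3 and 3 for the same step in KD, against 1 and 4. Apart from left-out arrays, the other totals over both directions were within 1.5 times the main ones.

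Leaving out single arrays gave 1 to 2 calls for the WT step from 14DAF to 16DAF, 4 to 8 for the WT step to the dry seed, 0 to 1 and 3 to 5 for the same steps in KD, and 0 to 2, 1 to 7 and 1 to 5 for KD minus WT at 14DAF, 16DAF and the dry stage. It gave 0 to 1 and 0 to 0 for the interactions and 9 to 12 for the averaged difference. Deviations of same-numbered arrays correlated at -0.21, 0.42 and 0.17 between the genotypes at 14DAF, 16DAF and the dry stage. Over all 15 pairs of groups the range was -0.33 to 0.42, with 3 over 0.1. The main model did not take the numbers as pairs. The replicate block fits a single shift shared by all stages, so it cannot capture a pairing at 16DAF alone, which was not modelled. With the replicate block the counts were 6 at 16DAF, 3 in dry seeds and 11 for the averaged difference, against 7, 4 and 13. Using the dimmest in place of the brightest probe set could not be run, since each locus had 1. The cause of these changes was not tested, and 2 arrays a group limit what could be called.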

Other observations

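One probe set named both cytosolic tyrosyl-tRNA synthetase loci, AT1G28350 and AT2G33840, and so belongs to neither alone. It gave 7.15 and 7.02 at 14DAF, 7.25 and 7.29 at 16DAF, and 7.0 and 6.82 in dry seeds of WT, and 7.78 and 8.05, 7.99 and 8.01, and 6.93 and 6.95 in KD. The KD arrays lay above the WT arrays at 14DAF and 16DAF and within their range in dry seeds. This was chosen after its values were seen and was not tested.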
